A study of Mus musculus with 12 samples.

Results

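Whether a high fat diet altered the response of peritoneal macrophages to lipopolysaccharide (LPS) was measured as the interaction of diet and LPS. For each gene the interaction was the log2 change from 0 h to 24 h of LPS in macrophages of mice on high fat diet (HFD) minus the same change in macrophages of mice on chow. A value above 0 means a larger rise, or a smaller fall, in HFD, and the same number is the diet difference at 24 h minus the diet difference at 0 h. All 12 RNA-seq libraries of the series entered it, 3 for each of 4 groups: chow at 0 h, chow at 24 h, HFD at 0 h and HFD at 24 h of LPS. The cells of every group came from female mice, and strain, age, time on diet and LPS dose are not stated in the labels. Nothing in the labels ties a library to an animal, so the p-values measure the spread between libraries, which may be technical. Cells cultured for 24 h in the absence of LPS were not analysed here, and the effects of LPS and of time in culture cannot be told apart in either diet. One count row was kept per gene symbol, and identifiers without a symbol were kept as they were, which gave 24558 genes. Of them 12638 passed the filter on low counts and were tested.

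LPS is a component of the outer membrane of Gram-negative bacteria that macrophages sense through Tlr4 with its partners Cd14 and Ly96. The adaptor Myd88 leads from there to NF-kB, AP-1 and the genes of cytokines and chemokines, and the adaptor Ticam1 leads to Irf3, interferon beta and, through Stat2 and Irf9, to the interferon-stimulated genes. A macrophage can enter this response from a low or a raised resting state, and an interaction records any difference in the change that follows, from either end. The title of the series names the pentose phosphate pathway, which supplies NADPH, and inflammatory responses in hypercholesterolaemia, so these gene groups were among those described.

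The shallowest library, HFD 0 h replicate 3, had 2360209 counts in genes, and the other totals lay between 9134888 and 20688063. In the shallow library 3 counts equal 1.271 CPM (read counts scaled to a common library size), so low genes are poorly measured there. Interactions without it are given below for the 10 genes of smallest p above 0, and for G6pdx and Taldo1. Other values may lean on it. A lane 8 tag in the labels was carried by the 3 chow 24 h libraries and by HFD 24 h replicate 1 alone. All 8 macrophage markers were present in every library, for instance Csf1r at 814.3 to 1127.1 CPM and Adgre1 at 179.8 to 912.9 CPM. LPS changed 3355 genes in chow (26.5% of those tested) and 3115 in HFD (24.6%) at an adjusted p under 0.05. No gene was called higher with LPS in one diet and lower in the other.

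No gene passed the interaction test, with 0 of 12638 (0%) at an adjusted p under 0.05 by edgeR's quasi-likelihood test. The genes nearest to the threshold were Cfb and Ccl5, each with an adjusted p of 0.0805, and both had a larger LPS rise in HFD. At an unadjusted p under 0.05 there were 297 genes (2.35%), where 632 make 5% of those tested. Of them, 179 (1.42%) were above 0 and 118 (0.934%) below. DESeq2 called 9 genes on the same counts, limma-voom called 0, and limma-voom with sample quality weights called 5. The DESeq2 genes were Cfb, Ccl5, Oas3, Irf7, Rtp4, Zbp1, Ly6e and Ly6i above 0 and Nos2 below 0. Leaving out chow 24 h replicate 3 gave 3 calls in edgeR (Ccl5, Cfb, Rtp4), and leaving out HFD 0 h replicate 2 also gave 3 (Ccl5, Ccl9, Cfb). Each of the other 10 omissions gave 0. With no filter on low counts edgeR called 3 (Cfb, Ccl5 and Oas3).

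**Figure D1:**
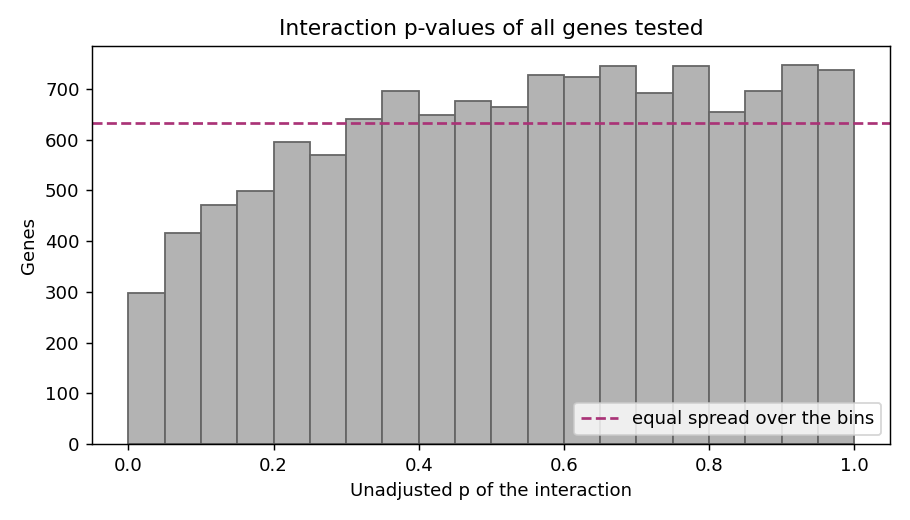
Number of genes (vertical axis) by unadjusted p of the interaction in edgeR's quasi-likelihood test (horizontal axis, 20 bins) for the 12638 genes tested, with a dashed line at 632 genes per bin. The lowest bin holds 297 genes, fewer than the line, so small p-values are not in excess. The last bin holds 737, more than the line, so the p-values were not evenly spread. The shortfall at low p therefore does not show that interactions are absent.

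The precision behind these values was limited by 3 libraries a group. The median standard error of the interaction was 0.29 on the log2 scale, and 0.25 among the 8754 genes with a mean of at least 10 CPM in some group, against 0.17 to 0.18 for each difference between 2 groups. For 7354 of these 8754 genes (84%) the 95% interval lay within a 2-fold difference in LPS response in either direction. In 50 of them the fitted interaction exceeded 2-fold, 34 above 0 and 16 below. Over all genes tested 6500 values were above 0 and 6138 below, with a median of 0.01.

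By rule, the 10 genes with the smallest p on each side are described by their values. Every one of the 10 above 0 rose with LPS in both diets. In 9 of the 10 the 3 HFD libraries at 0 h all lay below the 3 chow libraries, which was so for 6.36% of all genes tested, and in none of the 10 did HFD lie wholly below chow at 24 h (5.98% of all genes). The 0 h libraries are part of the interaction that chose these genes, so this is a description of where the difference lay. The genes shared a lower level in unstimulated HFD macrophages and similar levels in both diets after LPS, with Ccl9 as the exception.

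**Figure D2:**
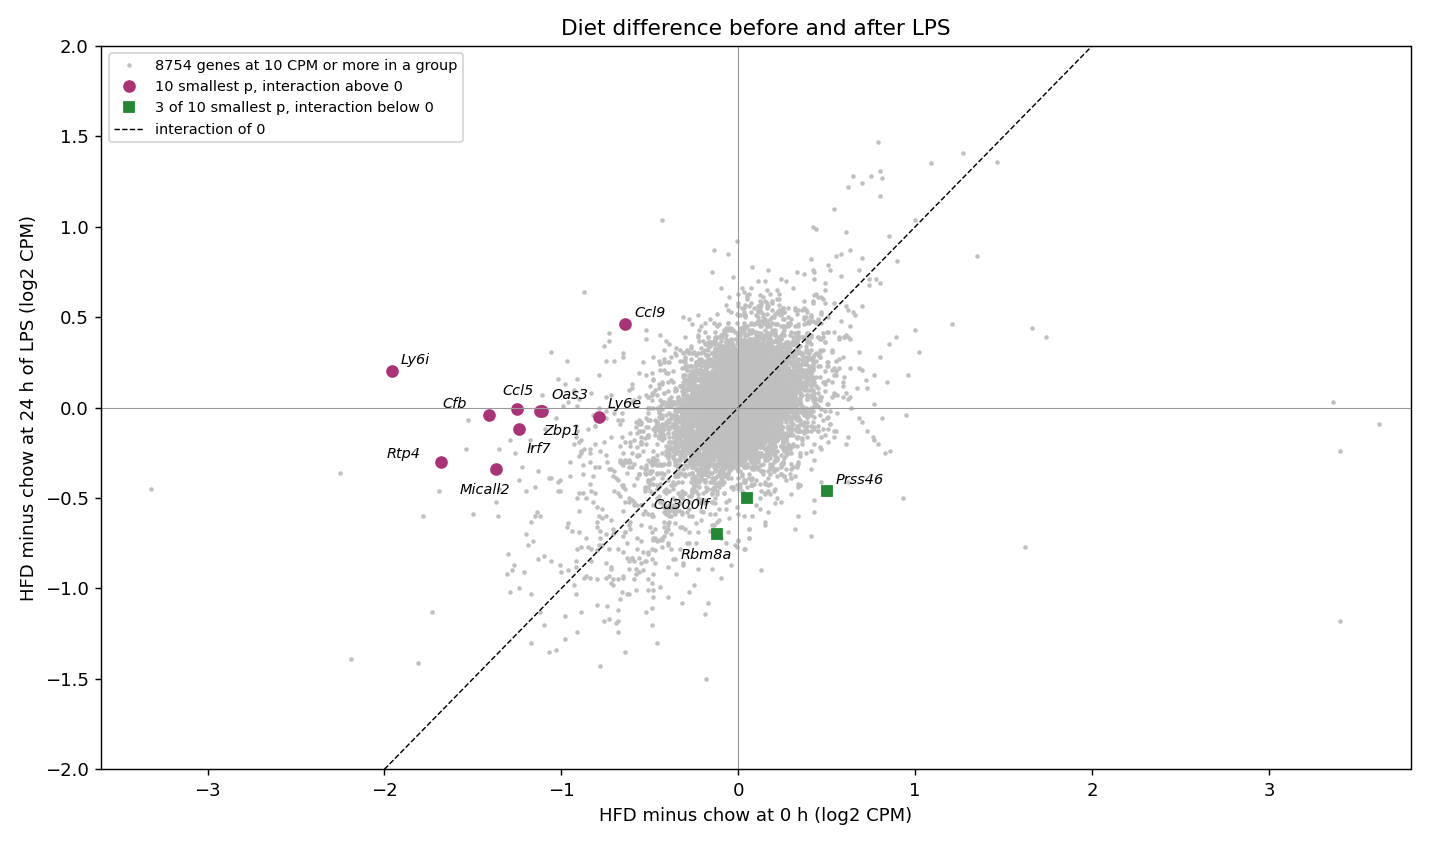
Diet difference (HFD minus chow, log2 CPM) at 24 h of LPS (vertical axis) against the diet difference at 0 h (horizontal axis) for the 8754 genes with at least 10 CPM in a group. Points above the dashed line have an interaction above 0. The 10 named genes above the line (circles) lie between -1.96 and -0.64 at 0 h and between -0.34 and 0.46 at 24 h, and 3 of the 10 named below the line are drawn as squares. Nos2, with 0 counts in chow at 0 h, lies outside the axes and the other 6 are under 10 CPM.

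Cfb encodes complement factor B, which forms the convertase of the alternative complement pathway (chr17:34856374-34862514, RefSeq positions on GRCm38.p6 here and below). Its level was 119.8, 144.8 and 106 CPM in chow at 0 h and 41, 55.2 and 41.8 CPM in HFD at 0 h. After LPS it reached 3317.2, 3719.8 and 3898.3 CPM in chow and 3320.6, 3477 and 3836.3 CPM in HFD. The diets did not overlap before LPS and overlapped after it. The log2 rise was 4.88 in chow and 6.26 in HFD, an interaction of 1.37 ± 0.21 (standard error, 95% interval 0.92 to 1.82). Without the shallow HFD library it was 1.33.

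Ccl5, a chemokine that draws T cells and monocytes (chr11:83525778-83530518), followed the same pattern. Chow libraries held 86.2, 98 and 110.6 CPM at 0 h and HFD libraries 41.3, 47.1 and 33.3 CPM. After LPS the values were 1709.8, 1715 and 1995.4 CPM in chow and 1907.6, 1793.3 and 1670 CPM in HFD, so the groups overlapped. Its interaction was 1.24 ± 0.20 (0.81 to 1.67), and 1.15 without the shallow library. A second chemokine of the same chromosomal cluster, Ccl9 (chr11:83572917-83578636), had HFD values of 147.6, 283.7 and 155.1 CPM at 0 h that overlapped chow at 281.1 to 323.3 CPM. At 24 h its HFD values of 1323, 1343.6 and 1044.5 CPM were all above chow at 875.2 to 932.9 CPM. The interaction of Ccl9 was 1.10 ± 0.28 with an adjusted p of 1, and it was 1.48 (adjusted p = 0.0139) without HFD 0 h replicate 2, the high library.

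Irf7 is the transcription factor that amplifies type I interferon production (chr7:141263183-141266499). Unstimulated chow macrophages held 198.2, 182.2 and 186.8 CPM and HFD macrophages 57.7, 98.3 and 84.5 CPM. At 24 h chow held 1842.6, 1794.6 and 1887.3 CPM and HFD 1663.9, 1956.3 and 1463.6 CPM. All 3 HFD libraries were low before LPS, and after it they lay on both sides of chow. The interaction was 1.12 ± 0.23 (0.63 to 1.62, adjusted p = 0.395).

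Oas3 makes 2-5A, the short oligoadenylate that switches on RNase L against viral RNA (chr5:120753098-120777684). It was at 81.7, 75.4 and 87.2 CPM in chow and 36.9, 33.3 and 45 CPM in HFD before LPS. It was at 764.3, 738.4 and 741.2 CPM in chow and 634.9, 802.9 and 773.9 CPM in HFD after it. Again only the 0 h groups were separate, and the interaction was 1.09 ± 0.19 (0.68 to 1.5, adjusted p = 0.133).

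Rtp4, an interferon-induced chaperone, had the lowest HFD values relative to chow among these at 0 h after Ly6i. It was at 40.6, 39.3 and 48.6 CPM in chow and at 12.5, 17.3 and 7.64 CPM in HFD. At 24 h it was at 288.5, 284.2 and 439.3 CPM in chow and 269.6, 290 and 264.5 CPM in HFD, and the interaction was 1.39 ± 0.29 (0.77 to 2). Zbp1, a sensor of Z-form nucleic acid that can start necroptosis, was at 15.6 to 20.5 CPM in chow and 5.84 to 9.8 CPM in HFD at 0 h. After LPS it was at 327 to 430.6 CPM in chow and 347 to 371.9 CPM in HFD, an interaction of 1.11 ± 0.24. Ly6e, a surface protein that restricts virus entry, was at 517.8 to 585.7 CPM in chow and 308.3 to 334.3 CPM in HFD at 0 h, and its interaction was 0.74 ± 0.17.

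The remaining genes of the 10 were low before LPS. Ly6i had 7, 5 and 0 counts in the HFD libraries at 0 h against 1.9 to 2.92 CPM in chow, so its interaction of 2.16 ± 0.43 rests on a handful of reads, and reads of the near-identical Ly6 family may be split between members. Micall2, which links actin and membrane traffic, was at 14 to 17.9 CPM in chow and 5.23 to 6.97 CPM in HFD at 0 h, and at 44.3 to 61.6 CPM and 35.8 to 46.3 CPM at 24 h. Its interaction was 1.03 ± 0.26 with an adjusted p of 1.

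**Figure D3:**
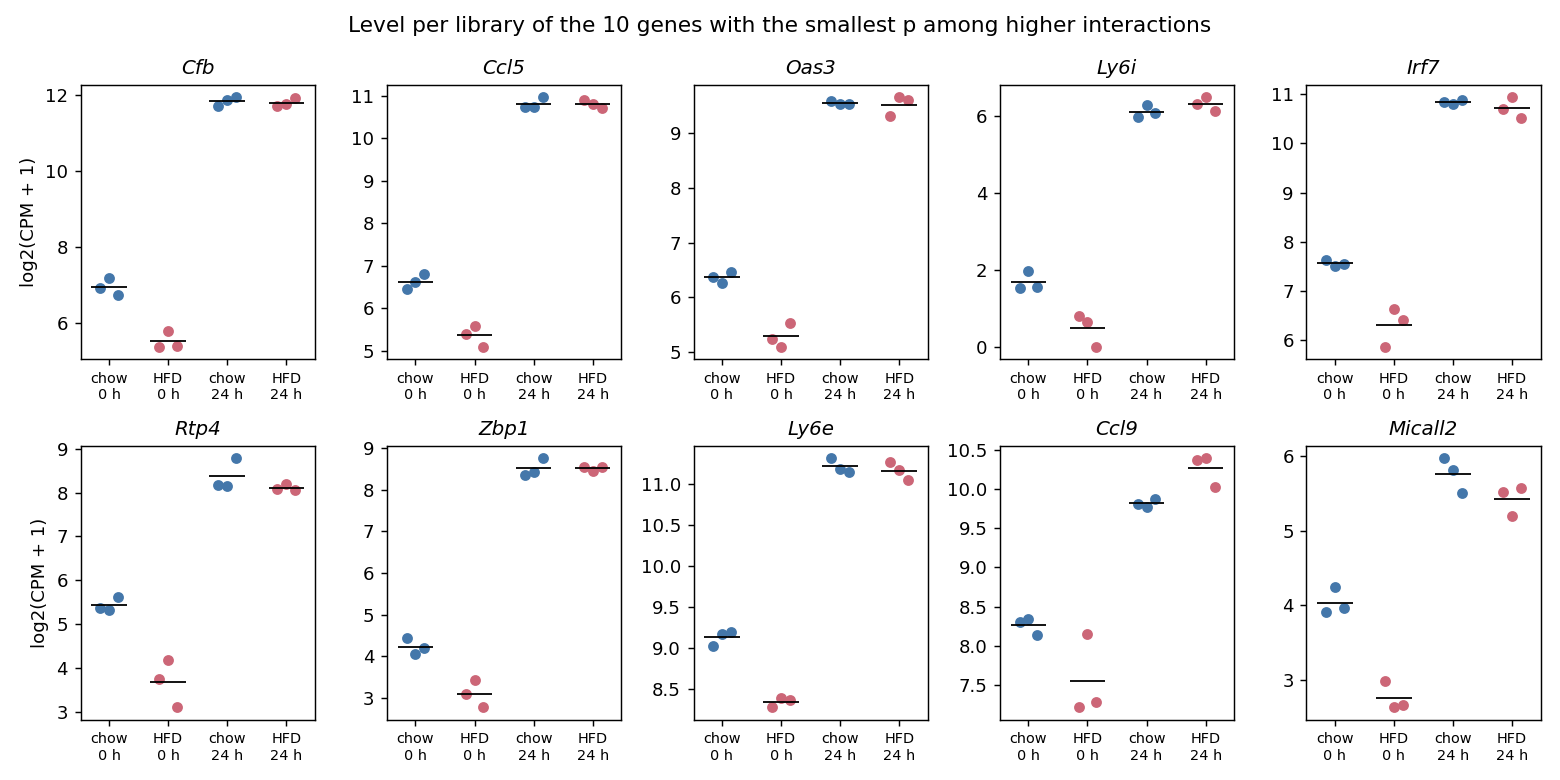
Level in each library as log2(CPM + 1) (vertical axis, with its own range in each panel) by diet and time (horizontal axis) for the 10 genes with the smallest interaction p above 0. Points are libraries and bars are group means of 3. In 9 of the 10 panels the HFD points at 0 h lie below all chow points, and at 24 h the diets overlap in every panel except Ccl9.

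The diet comparison before LPS called 11 genes (0.087%), each lower in HFD. Their levels at 24 h come from other libraries, although all 12 share the fit that called them, and the count was 25 without HFD 24 h replicate 2 and 7 without chow 0 h replicate 2. The 11 were Cfb, Ccl5, Oas3, Irf7, Rtp4, Zbp1, Ly6e, Micall2, Acod1, Oasl2 and Ifi27l2a. Their log2 diet differences ran from -1.78 to -0.79 at 0 h with a median of -1.25, and from -0.60 to -0.01 at 24 h with a median of -0.12. At 24 h all 11 were below 0, none passed, and their adjusted p ran from 0.342 to 0.991. All 11 interactions were above 0, with a median of 1.11, but the 0 h libraries enter both comparisons, so this sign is not separate support. Between diets at 24 h 1 gene passed (0.00791%), Mamdc2, which was higher in HFD.

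Interferon-stimulated genes were the list with most members near the top. The lists and members were chosen with earlier results of these data known, so such rankings are descriptions. All 48 measured members rose with LPS in both diets (13.7% of all genes rose in chow and 12.7% in HFD). None passed the interaction test, 42 had a value above 0 and 6 below, against 6500 of 12638 over all genes, and the median was 0.27 against 0.01. At an unadjusted p under 0.05 there were 9 members above 0 and 0 below (1.42% and 0.934% of all genes). The median diet difference was -0.42 at 0 h and -0.14 at 24 h. Of the 9, Oas1g had an interaction of 1.10 ± 0.30, Oasl2 0.76, Ifi27l2a 1.18, Xaf1 0.82 and Ifit3b 2.87 ± 1.13, besides Oas3, Rtp4, Zbp1 and Ly6e. The Ifit3b value rests on a mean of 0.03 CPM in HFD at 0 h, far under the level of 3 counts in any library. The Oas and Ifit families hold near-identical copies, so reads of Oas1g and Ifit3b in particular may be split with their relatives. Ifit1, which binds foreign RNA, had a value of 0.28 ± 0.42 (-0.62 to 1.18), and Cxcl10, an interferon-induced chemokine, had -0.48 ± 0.53. Cxcl10 was at 244.7, 240.4 and 385.2 CPM in chow and 84, 163.3 and 196.2 CPM in HFD at 24 h, so HFD lay wholly below chow there, unlike in the genes above.

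Promoters of 3 of these genes are shown because interferon signals are known to reach such genes through a short promoter element bound by ISGF3. RefSeq promoter windows on GRCm38.p6, from 250 bases before to 50 bases after the transcription start, were at hand for 36 of the 48 list members and 10033 of the genes tested. The interferon-stimulated response element was searched as the letters GAAA, any 2 bases and GAAA again, on both strands, with overlapping matches allowed. It was present in the windows of 22 of the 36 (61.1%) and of 394 of the 10033 (3.93%). Of the 9 members named above 5 had a window, and Rtp4, Zbp1, Ly6e and Ifi27l2a had none. Of the 5, the Oas3, Oas1g and Ifit3b windows held a match and are printed 5′ to 3′ on the strand of the gene, with the match in capitals. The Oas3 window (chr5:120777610-120777909, minus strand) has 1 match from base -75, the Oas1g window (chr5:120887564-120887863, minus strand) has 2 overlapping matches from -18 and -12, and the Ifit3b window (chr19:34607707-34608006, plus strand) has 2 from -188 and -154, which read TTTC first because they lie on the other strand.
Oas3: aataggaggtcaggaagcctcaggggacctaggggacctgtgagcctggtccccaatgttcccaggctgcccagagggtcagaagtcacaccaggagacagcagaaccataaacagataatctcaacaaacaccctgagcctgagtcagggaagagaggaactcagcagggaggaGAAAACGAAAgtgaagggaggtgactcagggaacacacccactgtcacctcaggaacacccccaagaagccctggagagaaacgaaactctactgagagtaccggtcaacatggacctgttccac
Oas1g: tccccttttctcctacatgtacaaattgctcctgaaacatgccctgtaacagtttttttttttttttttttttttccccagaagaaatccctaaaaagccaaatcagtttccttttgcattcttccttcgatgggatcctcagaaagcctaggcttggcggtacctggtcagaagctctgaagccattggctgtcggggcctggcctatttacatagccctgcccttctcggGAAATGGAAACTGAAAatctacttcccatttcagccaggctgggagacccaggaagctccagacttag
Ifit3b: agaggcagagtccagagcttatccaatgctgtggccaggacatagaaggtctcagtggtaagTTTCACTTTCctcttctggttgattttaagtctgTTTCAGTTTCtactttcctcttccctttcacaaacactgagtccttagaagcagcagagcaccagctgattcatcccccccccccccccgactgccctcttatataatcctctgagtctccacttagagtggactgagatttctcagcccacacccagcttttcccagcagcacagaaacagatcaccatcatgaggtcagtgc
No match was found in the windows of Irf7, Ccl9, Micall2, Oasl2 and Xaf1, which says only that these letters are not in those windows. A match is a description of the sequence and not a binding site.

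Upstream of these genes, the list of interferon and JAK-STAT signalling had 16 of 24 members above 0 and a median of 0.08, with 0 past the test. Irf7 had its smallest p. Stat2 and Irf9, which are parts of the ISGF3 complex, had values of 0.51 ± 0.20 and 0.43 ± 0.18, and Ifnar1, a chain of the type I interferon receptor, had 0.43 ± 0.18, each with an adjusted p of 1. Stat2 was at 44.4 to 52.7 CPM in chow and 27.8 to 36.9 CPM in HFD at 0 h, without overlap, and at 258.8 to 275.3 CPM and 200.8 to 274.3 CPM at 24 h.

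In the sensing of LPS itself the differences were small. Of 24 genes from receptors to kinases 18 were above 0, the median was 0.10 and 0 passed. For 23 the interval lay within 2-fold, as did 61% over all genes and 84% of those with at least 10 CPM in a group. Tlr4, the receptor, was at 144.1, 125.5 and 125.2 CPM in chow and 135.5, 149.9 and 71.9 CPM in HFD at 0 h. At 24 h it was at 99.4, 102.8 and 107.6 CPM in chow and 121.6, 172.2 and 148.8 CPM in HFD. The diets overlapped before LPS only, and the 71.9 CPM came from the shallow library. The interaction was 0.64 ± 0.28 (0.04 to 1.23) with an adjusted p of 1. It was 0.41 to 0.83 with 1 library left out and 0.36 with the lane tag in the fit. The adaptor Ticam2 had 0.33 ± 0.23, and the kinases Mapk14 and Map3k7 had 0.24 ± 0.17 and 0.28 ± 0.21.

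**Figure D4:**
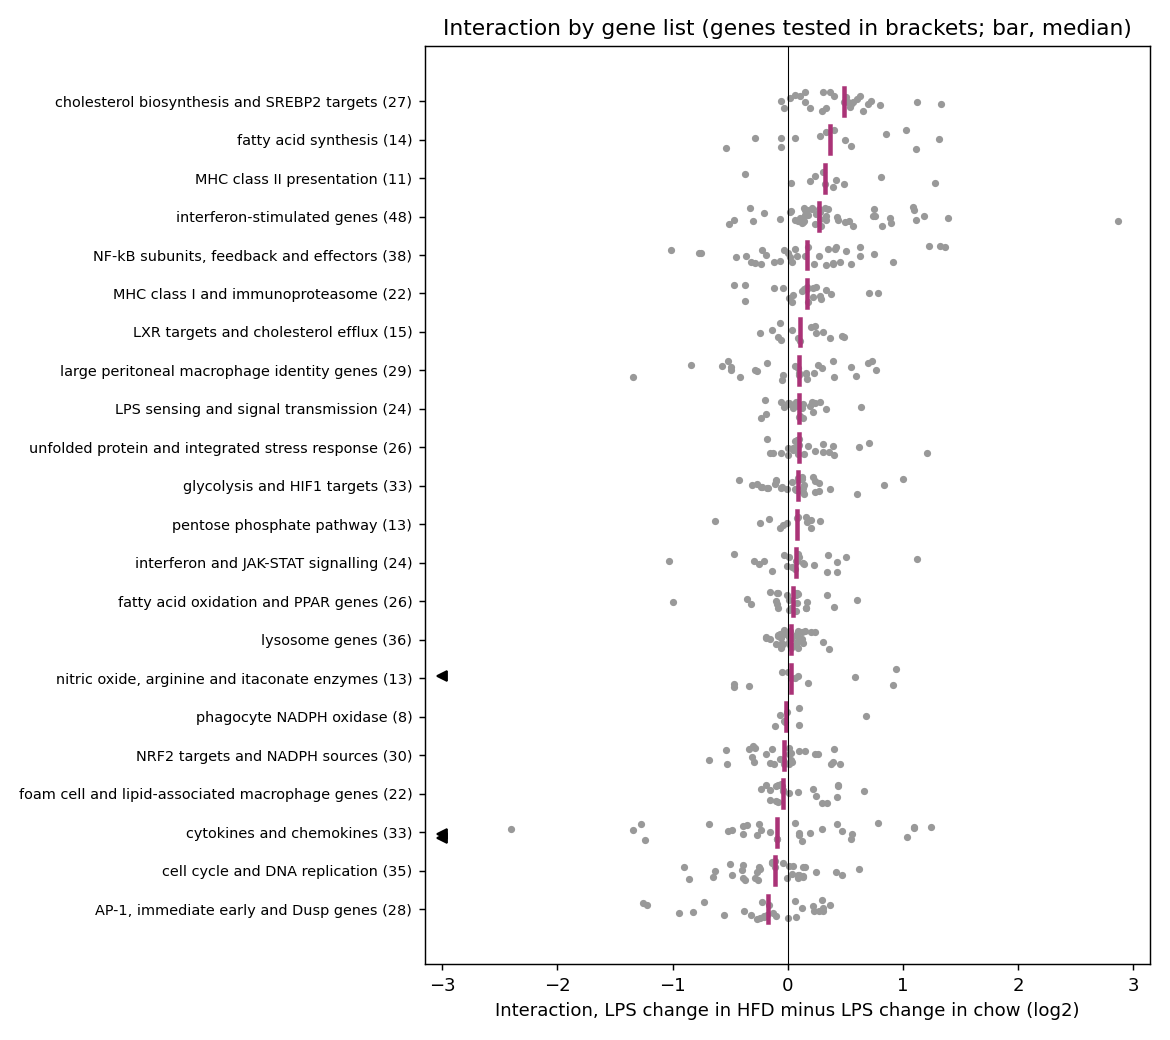
Interaction of each measured gene (grey points, log2, horizontal axis) in 22 gene lists (vertical axis), with the median of each list as a bar and the number of genes tested in brackets. Values beyond 3 are drawn as arrowheads at the edge. The medians run from -0.17 for AP-1, immediate early and Dusp genes to 0.49 for cholesterol biosynthesis, and 16 of the 22 are above 0.

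Cytokines and chemokines did not share a direction. Among 33 measured genes 15 were above 0 and 18 below, with a median of -0.09 and 0 past the test, while 27 rose with LPS in each diet (13.7% of all genes in chow and 12.7% in HFD). Only 5 of the 33 intervals lay within 2-fold (61% of all genes), and several of these genes were near 0 counts before LPS. Tnf was at 20.8, 24.3 and 26.2 CPM in chow and 23.7, 13.4 and 27 CPM in HFD at 0 h. After LPS it was at 188.1, 217.7 and 280.6 CPM in chow and 208.8, 129.1 and 218 CPM in HFD, so the diets overlapped at both times. Its interaction of -0.09 ± 0.34 (-0.81 to 0.63) changed sign when any of several libraries was left out.

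Il1b, which encodes the fever cytokine interleukin 1 beta, had an interaction of 0.12 with a wide interval of -1.93 to 2.17. It was at 66.1, 101.6 and 102.5 CPM in chow and 76.9, 23.8 and 88 CPM in HFD at 24 h. Il6 had no count in chow at 0 h and 1 count in HFD at 0 h, and at 24 h it was at 2.61 to 3.21 CPM in chow and 0.84 to 1.34 CPM in HFD, without overlap. The rise was at least 36.5-fold in chow, set against 3 counts over the group, and 23.2-fold in HFD with a counting interval of 4 to 930. Il12b, a subunit of interleukins 12 and 23, had -0.15 with an interval of -2.74 to 2.44, and Ptgs2, the inducible cyclooxygenase, had -1.01 ± 0.61. Ccl6 had 1.10 ± 0.42 and Il15, which sustains natural killer cells, had -0.68 ± 0.30, neither past the test.

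NF-kB subunits, feedback inhibitors and effectors had 24 of 38 members above 0 and a median of 0.17, and 0 passed. Cfb led the list. At an unadjusted p under 0.05 there were 4 members above 0 and 0 below (1.42% and 0.934% of all genes). Besides Cfb they were Clec4e, C3 and Marco. Clec4e, a receptor for mycobacterial glycolipid, was at 30.9, 44.3 and 29.5 CPM in chow and 15.7, 18.3 and 20.7 CPM in HFD at 0 h. LPS brought it to 1145.8, 1399.7 and 1843.9 CPM in chow and 1419.7, 1476.4 and 2367.4 CPM in HFD, and the interaction was 1.23 ± 0.32. C3, the central complement component, was at 212.9 to 366.3 CPM in chow and 160.4 to 191.1 CPM in HFD before LPS, and at 886.3 to 1008.9 CPM and 892.5 to 1157.2 CPM after it. The interaction of C3 was 0.91 ± 0.25, so HFD lay wholly below chow at 0 h and overlapped it at 24 h in both complement genes named here. The scavenger receptor gene Marco had 0.75 ± 0.35 and stayed apart at both times, with 25.3 to 36.9 CPM in HFD and 42.9 to 48.5 CPM in chow at 24 h.

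The enzymes of nitric oxide, arginine and itaconate metabolism held values at both ends. Nos2, the inducible nitric oxide synthase (chr11:78920787-78960226), had 0 counts in the 3 chow libraries at 0 h and 10 counts in all in HFD at 0 h. At 24 h it was at 491.7, 505.2 and 655.9 CPM in chow and 118.5, 257.4 and 261.1 CPM in HFD, and the groups did not overlap. The rise was at least 6880-fold in chow, set against 3 counts over the group, and 469-fold in HFD (counting interval 255 to 978). The fitted interaction of -7.01 ± 2.19 depends on how a group at 0 is handled and is no measure of size. Between diets at 24 h the log2 difference was -1.37, which did not pass.

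Acod1, which makes the antimicrobial metabolite itaconate (chr14:103047012-103056573), went the other way. It was at 42.5, 51.5 and 36.3 CPM in chow and 15.2, 12.8 and 20.2 CPM in HFD at 0 h. After 24 h of LPS the level was 3380, 3347.6 and 3929.2 CPM in chow and 2372.5, 1992.8 and 2712.5 CPM in HFD. HFD lay below chow at both times, by 1.5 before LPS and 0.59 after it on the log2 scale, an interaction of 0.91 ± 0.25 (0.38 to 1.43, adjusted p = 1). Ass1, which regenerates arginine for nitric oxide synthesis, had 0.94 ± 0.34. Arg1, which turns arginine into ornithine, had -0.47 ± 0.66, with 29.4 to 77.1 CPM in chow and 16.5 to 83.9 CPM in HFD at 0 h. In the whole list 8 of 13 were above 0 with a median of 0.03 and 0 passed.

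Antigen presentation genes had values mostly above 0. In the class I and immunoproteasome list 17 of 22 were above 0 with a median of 0.17, and 19 intervals lay within 2-fold (61% of all genes). H2-Q7 had 0.71 ± 0.24 and H2-Q6 0.78 ± 0.34, 2 neighbouring class I genes so alike that reads may be shared. Tap1, which carries peptides into the endoplasmic reticulum, had 0.38 ± 0.22, and the immunoproteasome subunit gene Psmb10 had -0.37 ± 0.20. In the class II list 10 of 11 were above 0 with a median of 0.32, and none had an unadjusted p under 0.05 (2.35% of all genes). The largest value was that of H2-Oa at 1.28 ± 0.82, a gene below 3 CPM in every library, while the chain genes H2-Aa and H2-Eb1 had 0.49 ± 0.35 and 0.42 ± 0.31. Dendritic cell markers also moved with diet and time: their summed level was 17.5 to 24.3 CPM in chow and 5.39 to 14.7 CPM in HFD at 0 h, and 27.7 to 37 CPM and 16.3 to 19.3 CPM at 24 h. All 4 measured of 7 were at or above 0 with a median of 0.64, no marker of that list was at 0 in all libraries, and their part in the class II values was not tested.

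Cholesterol biosynthesis and other SREBP2 targets had the highest median of the 22 lists, which were chosen with earlier results of these data known. Of 27 measured genes 25 had an interaction above 0, with a median of 0.49 against 0.01 over all genes. None passed, 3 had an unadjusted p under 0.05 (2.35% of all genes), and 9 intervals lay within 2-fold (61% of all). The median diet difference was -0.84 at 0 h and -0.39 at 24 h. LPS lowered 7 of the 27 in chow and 4 in HFD (12.9% and 11.9% of all genes), and raised 0 and 1. These enzymes are controlled together by Srebf2, which is active when the membranes of the cell are low in sterol.

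Hmgcs1, which makes the substrate of HMG-CoA reductase (chr13:119690351-119708260), was at 309.7, 317.1 and 306.4 CPM in chow and 191.7, 101.2 and 127.2 CPM in HFD at 0 h. After LPS the values were 149.8, 154.5 and 120.9 CPM in chow and 112.9, 69.8 and 130 CPM in HFD. The groups were separate before LPS and overlapped after it. It fell with LPS in chow by 1.13 and had a change of -0.43 in HFD that did not pass, and the interaction was 0.70 ± 0.32 (0.03 to 1.38, adjusted p = 1). Hsd17b7, a late enzyme of the pathway, was at 39.8 to 45.5 CPM in chow and 12.7 to 20 CPM in HFD at 0 h, and at 35.3 to 38.6 CPM and 18 to 42.6 CPM at 24 h. Its interaction was 1.12 ± 0.35, while Nsdhl and Msmo1, which remove methyl groups from the sterol ring, had 0.57 ± 0.26 and 0.51 ± 0.27.

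Fatty acid synthesis genes resembled the sterol genes in their medians, at 0.37 with 10 of 14 above 0 and 0 past the test. Scd2, a desaturase, was at 275.8, 255.9 and 170.4 CPM in chow and 132.8, 99.4 and 137.1 CPM in HFD at 0 h. The 24 h libraries held 258.8, 252.3 and 178.4 CPM in chow and 288.9, 186.7 and 263.6 CPM in HFD, so only the 0 h groups were separate. Scd2 rose with LPS in HFD by 1.01 and had a change of -0.03 in chow, an interaction of 1.03 ± 0.29 (adjusted p = 1). Acsl3, which activates fatty acids, had 1.11 ± 0.37, and the elongases Elovl6 and Elovl5 had 0.85 ± 0.36 and 0.40 ± 0.21.

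The genes of lipid export and storage gave smaller values. In the list of LXR targets and cholesterol efflux 10 of 15 were above 0 and the median was 0.11. Within 2-fold lay 13 intervals (61% of all genes). Abca1, the pump that loads apolipoprotein A1 with cholesterol, was at 299.8, 265.1 and 309.4 CPM in chow and 407.9, 595.2 and 336.7 CPM in HFD at 0 h. The 24 h levels were 557.1, 551.6 and 548.4 CPM in chow and 768.6, 808.7 and 839.7 CPM in HFD. HFD lay above chow at both times by a like amount, and the interaction was -0.07 ± 0.23 (-0.56 to 0.41). Abcg1, which passes cholesterol to high density lipoprotein, was likewise higher in every HFD library than in any chow library at both times, and had 0.37 ± 0.28 (-0.22 to 0.95). Scarb1 had 0.47 ± 0.21, Npc1 0.31 ± 0.21 and Lpcat3 0.20 ± 0.17.

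Foam cell and lipid-associated genes had 10 of 22 above 0 and a median of -0.04, with 17 intervals within 2-fold (61% of all genes). Lpl, the lipase of lipoprotein triglyceride, had 0.43 ± 0.23, Spp1 0.30 ± 0.17, Msr1 0.34 ± 0.20 and Itgax 0.44 ± 0.36. Fatty acid oxidation and PPAR genes had 16 of 26 above 0 and a median of 0.04. Angptl4, a PPAR target that inhibits Lpl, was at 6.49 to 7.53 CPM in chow and 11.4 to 17.3 CPM in HFD at 0 h, and at 3.28 to 5.82 CPM and 3.47 to 4.76 CPM at 24 h. Its interaction of -1.0 ± 0.37 was below 0 with the higher HFD level lying at 0 h only, and it did not pass. Etfb had 0.40 ± 0.24, Acaa1a -0.32 ± 0.27 and Ppard -0.35 ± 0.30.

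No interaction was detectable in the pentose phosphate pathway at the precision of these libraries. Of 13 measured genes 7 were above 0 and 6 below, the median was 0.08, and 11 of the 13 intervals lay within 2-fold, as did 61% over all genes. The 13 held 0 genes at an unadjusted p under 0.05, which in so short a list says little beside the 2.35% of all genes. G6pdx, the glucose-6-phosphate dehydrogenase that starts the pathway (chrX:74409483-74428880), was at 190.4, 200.5 and 248.7 CPM in chow and 249.5, 190.2 and 126.3 CPM in HFD at 0 h. At 24 h it was at 282.7, 269.1 and 350 CPM in chow and 285.7, 265.2 and 299 CPM in HFD. The diets overlapped at both times, and the interaction was 0.08 ± 0.27 (-0.49 to 0.65).

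Pgd, the second dehydrogenase of the oxidative branch, had -0.07 ± 0.20 (-0.50 to 0.36), with 604.7 to 627.4 CPM in chow and 456.6 to 559.6 CPM in HFD at 0 h. The transketolase gene Tkt had 0.16 ± 0.25 (-0.36 to 0.69) and the transaldolase gene Taldo1 -0.16 ± 0.22 (-0.62 to 0.30). Among the members with the smallest p were Shpk, the sedoheptulose kinase, at -0.63 ± 0.59, Prps2 at 0.28 ± 0.26, Rpe at 0.20 ± 0.19 and Rpia at -0.24 ± 0.30. For G6pdx, Pgd, Tkt and Taldo1 the intervals reach neither a 2-fold larger nor a 2-fold smaller response in HFD. The signs of these 4 changed when single libraries were left out. Without the shallow library G6pdx was at -0.12 and Taldo1 at 0.01.

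**Figure D5:**
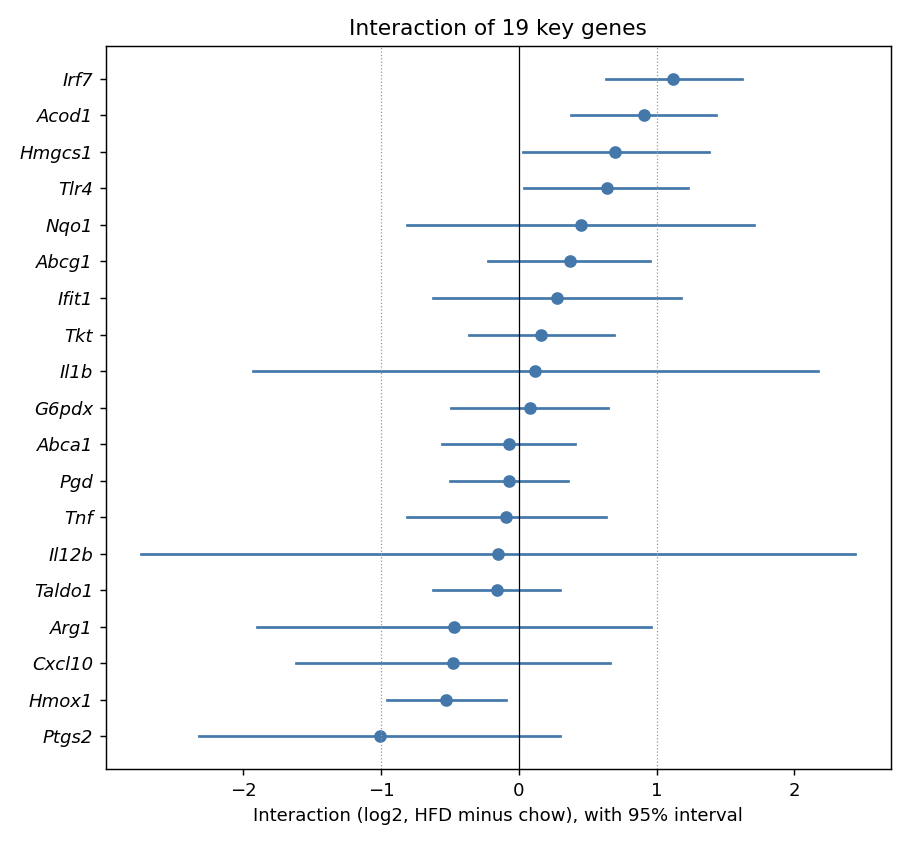
Interaction (points, log2) with 95% interval (lines) for the 19 reported key genes with counts in every group (vertical axis), ordered by value, with dotted lines at a 2-fold difference in LPS response. Nos2 and Il6 are not drawn because they had 0 counts in chow at 0 h. The intervals of Irf7, Acod1, Hmgcs1 and Tlr4 lie above 0 and that of Hmox1 below, before adjustment over all genes.

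Genes that use or protect NADPH were as a group near 0. NRF2 targets and NADPH sources had 14 of 30 above 0, a median of -0.03 and 24 intervals within 2-fold (61% of all genes). Hmox1, heme oxygenase 1, was at 473.6, 461.1 and 502.4 CPM in chow and 457.5, 429 and 401.9 CPM in HFD at 0 h. With LPS it reached 1931.8, 1725.3 and 1264.7 CPM in chow and 1089.2, 1069.1 and 910 CPM in HFD. HFD lay below chow at both times, with the larger gap after LPS, and the interaction was -0.53 ± 0.21 (-0.96 to -0.09, adjusted p = 1). Srxn1 had -0.30 ± 0.17, Sod1 -0.34 ± 0.22, Ftl1 -0.28 ± 0.19 and Nqo1, at under 5 CPM throughout, 0.45 ± 0.60. In the phagocyte NADPH oxidase 3 of 8 were above 0 with a median of -0.02. Its catalytic subunit gene Cybb had 0.68 ± 0.25, while Cyba had -0.11 ± 0.21 and Ncf1 0.10 ± 0.21.

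Other programs of the activated cell gave no call either. Glycolysis and HIF1 targets had 20 of 33 above 0 with a median of 0.09. Aldoc had 1.0 ± 0.40, Ero1a 0.60 ± 0.30, Egln3 0.84 ± 0.49, and Pkm, the pyruvate kinase, -0.31 ± 0.18. Unfolded protein and integrated stress response genes had 21 of 26 above 0 with a median of 0.09, among them Asns at 0.71 ± 0.31, Pdia4 at 0.39 ± 0.18, Chac1 at 1.21 ± 0.68 and Hsp90b1 at 0.31 ± 0.21. Lysosome genes were the most tightly bounded of the 22 lists, since all 36 intervals lay within 2-fold. This was so for 61% of all genes and 84% of those with at least 10 CPM in a group. Their median was 0.03, with values such as 0.31 ± 0.21 for Ctsc, 0.36 ± 0.29 for Atp6v0d2, 0.20 ± 0.18 for Neu1 and -0.19 ± 0.19 for Lamp1.

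Large peritoneal macrophage identity genes had 17 of 29 above 0 and a median of 0.10. Mamdc2 was at 335.4, 389 and 501.3 CPM in chow and 694.9, 573.1 and 620.8 CPM in HFD at 0 h, and at 13.6, 15.8 and 18.4 CPM and 39.2, 35.9 and 36.2 CPM at 24 h. It fell with LPS in both diets, HFD lay above chow at both times, and the interaction of 0.59 ± 0.22 did not pass. Adgre1, which encodes F4/80, had 0.73 ± 0.27, Cd93 0.39 ± 0.18 and the integrin gene Itga6 0.40 ± 0.20. AP-1, immediate early and Dusp genes had the lowest median at -0.17, with 11 of 28 above 0. The phosphatase genes Dusp2 and Dusp5 had -1.26 ± 0.46 and -0.94 ± 0.39 at levels of about 12 CPM or less, Egr1 had -0.82 ± 0.35 and Ier5 -0.55 ± 0.27. Cell cycle genes had 14 of 35 above 0 and a median of -0.11, with 0.47 ± 0.23 for the inhibitor Cdkn1a, -0.90 ± 0.51 for Ccnd2, -0.39 ± 0.24 for Cdkn1b and -0.86 ± 0.56 for Aurka.

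Below 0, the 10 genes with the smallest p were a looser group, each with an adjusted p of 1. In 6 of them (Zfyve28, Zfp521, Bcat1, Fat3, Cdk15 and Smim26) no group mean reached 10 CPM. Their values were -2.32 ± 0.62, -3.48 ± 1.03, -1.37 ± 0.42, -2.76 ± 0.84, -3.14 ± 1.02 and -1.35 ± 0.47 in that order. In 7 of the 10 the HFD libraries at 24 h all lay below chow (5.98% of all genes), and in none did they do so at 0 h. In 4 of the 10 (Prss46, Zfp521, Cdk15 and Smim26) the HFD libraries at 0 h all lay above chow (5.86% of all genes). The gap between diets thus lay after LPS in some of these genes, before it in others and at both times in Cdk15, and the choice by interaction fixes part of this.

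Among the better expressed of them was Cd300lf, an inhibitory receptor of myeloid cells (chr11:115116214-115135372). It was at 98.9, 105.4 and 103.1 CPM in chow and 95, 106.3 and 119.6 CPM in HFD at 0 h, and at 385.9, 336.5 and 361.5 CPM and 263.5, 291.3 and 212.1 CPM at 24 h. The diets overlapped before LPS and were separate after it, and the interaction was -0.55 ± 0.19 (-0.96 to -0.15). Rbm8a, a core factor of the exon junction complex, was at 33.4 to 36 CPM in chow and 27.9 to 34.6 CPM in HFD at 0 h, and at 53.2 to 61.8 CPM and 32.5 to 38.4 CPM at 24 h. It rose with LPS in chow by 0.73 and had a change of 0.15 in HFD, an interaction of -0.59 ± 0.19. Prss46, a serine protease gene, had -0.96 ± 0.26, with HFD above chow at 0 h and overlapping at 24 h.

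Across all genes the LPS response itself gave the background for these lists. Of the 1327 genes that rose in both diets 790 had an interaction above 0, with a median of 0.06. At an unadjusted p under 0.05 there were 57 of them above 0 and 11 below (1.42% and 0.934% of all genes). Of the 1202 that fell in both diets 645 were above 0, with a median of 0.01. These genes were chosen on the same libraries, so the counts are descriptions.

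Markers of other peritoneal cells were low except for mesothelial and stromal ones. Those summed to 923.6 to 2894.6 CPM in chow and 836.1 to 1572.9 CPM in HFD at 0 h, and to 1237.3 to 3565.8 CPM and 1161.4 to 1315.1 CPM at 24 h. Of the 12 measured of 14 such markers 1 was above 0, the median was -0.41, 0 passed, and none of the 14 was at 0 in all libraries. B cell markers summed to at most 27.2 CPM and T cell markers to at most 14 CPM in any library, and erythroid markers to at most 1.03 CPM. Neutrophil markers summed to 92.6 to 159.1 CPM, eosinophil markers to 6.64 to 26.1 CPM and mast cell markers to 18.1 to 29.2 CPM. Markers of small peritoneal macrophages and monocytes summed to 53.4 to 74.1 CPM in chow and 36.4 to 51.9 CPM in HFD at 0 h, and to 107.3 to 239 CPM and 106.3 to 128.6 CPM at 24 h, so HFD lay wholly below chow at 0 h and overlapped it at 24 h. The median diet difference of that list was -0.51 at 0 h and -0.37 at 24 h. In bulk RNA fewer cells of a type and less RNA per cell cannot be told apart, and the part of these cells in the values above was not tested.

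A pair of limits bear on the genes above 0. Because the lane 8 tag falls on all chow 24 h libraries, a fit with it rests its 24 h diet difference on HFD 24 h replicate 1: the 10 genes then had values of 0.84 to 2.16 with no reversal, and the smallest adjusted p was 0.738 in edgeR. Without the shallow HFD 0 h library no gene passed and the smallest adjusted p was 0.101.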

How the data were processed

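RNA was sequenced from 12 libraries of peritoneal macrophages (per the labels' protocols, with a NuGen Ovation kit). Per the submitters' processing notes the tools were CASAVA 1.8.2 and STAR 2.5.2b with mm10, and the authors deposited raw read counts per transcript identifier. The counting program and its strand setting were not found in the labels or headers, so overlapping and antisense genes cannot be told apart. Of 35745 identifiers 35440 matched a RefSeq symbol and 188 a GENCODE symbol. The row with the highest mean was kept per symbol. The 117 without a symbol, holding 2.33 to 12.02% of the counts, stayed in the main fit and were not named.

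Counts were fitted with edgeR 4.0.16 (R 4.3.3: TMM, filterByExpr, robust quasi-likelihood, 4 group means), with Benjamini-Hochberg adjustment over 12638 genes at 0.05. CPM are TMM-scaled. Intervals are 95%. Nos2 and Il6 had 0 counts in chow at 0 h, so their chow rise is a lower bound against 3 counts, without an interval. Their HFD intervals for the rise cover counting error only. Scripts were tested on simulated data. Genes named are the 10 of smallest p per direction, 22 key genes and up to 4 of smallest p per list (22 pathway and 12 marker lists), some of which are not reported here. Members and lists were chosen with earlier results of these data known. Alternatives used DESeq2 1.42.0, limma 3.58.1, other normalizations and filters, isoform sums, a lane covariate, a replicate block and leaving out each library. All library pairs within a group differed beyond sampling noise (chi-square per degree of freedom of at least 6.26), so all 12 were used. Their Spearman correlations were 0.959 to 0.993.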

Additional observations from a re-analysis of the deposited data

How the results depend on the processing

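The count of genes past the interaction test was 0 above and 0 below 0. Above 0 it was 3 with no filter on low counts, 8 in DESeq2, 5 in limma-voom with quality weights, 4 with the replicate block and 0 to 3 when 1 library was left out (3 without chow 24 h replicate 3 or HFD 0 h replicate 2). Below 0 it was 1 in DESeq2 (Nos2) and 0 in the other settings run. The other normalizations, the CPM filter, limma-voom, isoform sums, removal of identifiers without a symbol, the test above 1.5-fold and the lane covariate gave 0. Genes at an unadjusted p under 0.05 numbered 297 and ranged from 86 (test above 1.5-fold) to 675 (quality weights). Libraries of 1 diet share label numbers between times, and whether these pair the libraries is not settled. The labels do not state it, and deviations correlated by 0.03 to 0.346, over 0.1 for 3 of 6 numbers, so no block was used in the main fit. As a hint from the data, 5 of 6 correlated best with their own number, each out of the 3 libraries of its diet at 24 h. The 4 genes of the replicate block were Ccl5, Cfb, Rtp4 and H2-M2, the last chosen after its value was seen. The LPS count in chow of 3355 became 5440 with quality weights and 1509 with the lane covariate. The diet count at 0 h of 11 became 23 without a filter, 66 in DESeq2 and 47 with quality weights, and 7 to 25 with 1 library left out (7 without chow 0 h replicate 2, 25 without HFD 24 h replicate 2). The diet count at 24 h of 1 became 10 without a filter, 43 in DESeq2, 10 in limma-voom, 58 with quality weights, 0 with the lane covariate and 0 to 4 with 1 library left out (0 without chow 24 h replicate 1, chow 24 h replicate 2 or HFD 24 h replicate 2, 2 without chow 24 h replicate 3 or HFD 24 h replicate 3, 3 without HFD 24 h replicate 1, 4 without HFD 0 h replicate 3). The cause was not tested for any of these.

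None of the 10 genes named above 0, or of the 10 below 0, changed sign in any setting run. Of 112 genes named by the rule, 15 changed sign somewhere, all uncalled. Il1b was at -0.20 in limma-voom, -0.12 with quality weights, -0.10 with the replicate block and -0.21 to 0.51 with 1 library left out. Tnf was at 0.03 with quality weights, 0.08 with the lane covariate and -0.37 to 0.10 with 1 left out. Il12b was at 0.74 in limma-voom, 1.08 with quality weights and -0.87 to 5.41 with 1 left out. Ifit1 was at -0.39 with the lane covariate and -0.02 to 0.56 with 1 left out. Quality weights gave 0.08 for Arg1 and 0.03 for Shpk, and the lane covariate gave 0.17 for Cyba, -0.05 for Ero1a and -0.06 for Egln3. With 1 library left out the ranges were -0.89 to 0.49 for Arg1, -0.12 to 0.33 for G6pdx, -0.21 to 0.05 for Pgd, -0.04 to 0.32 for Tkt, -0.29 to 0.01 for Taldo1, -0.23 to 0.19 for Abca1, -0.26 to 0.05 for Cyba and -0.05 to 0.29 for Ncf1. Depth limits genes under about 1.271 CPM in HFD 0 h replicate 3.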
